A study of Mus musculus with 12 samples.

Results

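The 7 genes described here, Mrc1, Stab1, Cd163, F13a1, Lyve1, Folr2 and Cbr2, are markers of border macrophages, the macrophages of the meninges, the perivascular spaces and the choroid plexus that are also called CNS-associated macrophages. They were taken by symbol from the 31053 genes of the deposited tables, and the question was which of them microglia-like cells (MLCs) carry and which they lack. All 7 were found and all 7 passed the filter on low counts in the 8 libraries of treated mice. Border macrophages lie outside the brain's parenchyma, take up proteins, debris and pathogens from blood vessels and cerebrospinal fluid, and present antigen. Microglia live inside the parenchyma. Microglia arise before birth, and border macrophages too are largely derived from the yolk sac. Many border macrophages are defined by endocytic receptors on their surface, which several of these 7 genes encode. MLCs are macrophages that settle in the brain after a transplant of hematopoietic stem and progenitor cells (HSPCs).

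The treated mice were C57BL/6J animals conditioned with busulfan and dosed with lineage-depleted HSPCs from male donors, transduced with a lentiviral vector carrying GFP, either into a vein (i.v.) or into 1 lateral ventricle (i.c.v.), and all of them later received non-transduced bone marrow by vein. From 1 female and 1 male per route, CD45+ CD11b+ CX3CR1+ cells of the dissociated whole brain were sorted into GFP+ cells (MLCs) and GFP- cells (endogenous microglia), 12 to 13 months after dosing by the design text, although an age of 22 to 28 weeks stands in the sample labels. A treatment-naive C57BL/6J mouse, aged 8 to 12 weeks by the labels, gave 1 library each of microglia, astrocytes, peripheral blood mononuclear cells (PBMCs) and cells sorted as neurons. Each of the 12 libraries is a 10x Genomics 3' single-cell library, and there were 4 GFP+ and 4 GFP- libraries, paired by mouse. Because the non-transduced marrow and any donor cell without GFP would be sorted as GFP-, the GFP- libraries may hold donor cells. Transcripts that differ between male and female cells are given below. The sort used no antibody that separates border macrophages from microglia, so both can be present in each library.

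A barcode was kept as a cell if it had 200 or more genes and no more than 10% of its unique molecular identifiers (UMIs) from mitochondrial genes. They numbered 2266 to 3536 in the GFP+ libraries, with 8835197 to 16514669 UMIs in all, and 2675 to 4555 in the GFP- libraries, with 4970758 to 8105756 UMIs. Median UMIs per cell ran from 1058 to 3499 in GFP+ and from 842 to 1034 in GFP- libraries, so shares of cells were compared after each cell had been thinned to 500 UMIs. The naive microglia library was shallow, with 425 UMIs per cell at the median and 792 of its 1274 cells under 500 UMIs. The library sorted as neurons held 48256 CPM (UMIs of a gene in 1000000 UMIs of the library) of 6 oligodendrocyte markers against 19.1 of 5 neuron markers, and is called the neuron sort here. Any pair of libraries shared at most 8 barcodes and at most 0.348% of those of the smaller library. EGFP transcripts were found at 500 UMIs in 0.692% to 2.08% of GFP+ cells with Mrc1 and 0.594% to 1.33% of those without, and in 0 and 3 of such GFP- cells in all.

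In mm10 (GRCm38) coordinates with GENCODE gene models, Mrc1 lies on chr2:14229392-14332057 on the plus strand, Stab1 on chr14:31139013-31168641 on the minus strand, Cd163 on chr6:124304656-124330527 on the plus strand and F13a1 on chr13:36867178-37050244 on the minus strand. Lyve1 lies on chr7:110850607-110863239, Folr2 on chr7:101839988-101857194 and Cbr2 on chr11:120729489-120732114, all on the minus strand. Stab1 overlaps Nt5dc2 on the other strand, and F13a1 and Folr2 overlap antisense or pseudogene models, so reads in those stretches could be assigned to the wrong gene if strand had not been used in the counting. Mir511 lies inside Mrc1 on the same strand. RefSeq promoter windows, from 250 bases before to 50 bases after the start, were at hand for 6 of the 7 genes on GRCm38.p6. Of these windows, 4 are shown, those of Mrc1 and Cd163 because these genes were called between the sorts, and those of Stab1 and Cbr2, which were not called, because they held both motifs. Capitals mark the letters GAGGAA, a core of sites for PU.1, which is the factor that macrophages need, and TGCTGA, a MAF half-site, on either strand (TTCCTC and TCAGCA).
Mrc1, chr2:14229164-14229463, plus strand: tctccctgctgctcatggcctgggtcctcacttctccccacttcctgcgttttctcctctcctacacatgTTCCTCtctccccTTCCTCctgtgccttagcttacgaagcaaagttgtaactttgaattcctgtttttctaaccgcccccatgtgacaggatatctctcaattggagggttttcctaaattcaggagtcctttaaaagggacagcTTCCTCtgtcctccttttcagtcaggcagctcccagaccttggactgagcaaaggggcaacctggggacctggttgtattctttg
Stab1, chr14:31168592-31168891, minus strand: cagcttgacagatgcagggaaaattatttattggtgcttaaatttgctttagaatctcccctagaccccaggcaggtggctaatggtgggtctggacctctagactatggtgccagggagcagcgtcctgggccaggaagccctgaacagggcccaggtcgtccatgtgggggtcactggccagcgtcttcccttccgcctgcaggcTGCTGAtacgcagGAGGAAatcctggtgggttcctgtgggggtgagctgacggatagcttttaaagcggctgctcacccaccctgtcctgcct
Cd163, chr6:124304401-124304700, plus strand: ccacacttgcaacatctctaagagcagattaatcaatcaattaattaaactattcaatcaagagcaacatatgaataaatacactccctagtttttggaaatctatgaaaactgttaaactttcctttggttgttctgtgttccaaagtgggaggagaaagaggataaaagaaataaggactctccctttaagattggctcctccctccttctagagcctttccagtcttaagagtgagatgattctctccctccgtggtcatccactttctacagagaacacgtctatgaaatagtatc
Cbr2, chr11:120731972-120732271, minus strand: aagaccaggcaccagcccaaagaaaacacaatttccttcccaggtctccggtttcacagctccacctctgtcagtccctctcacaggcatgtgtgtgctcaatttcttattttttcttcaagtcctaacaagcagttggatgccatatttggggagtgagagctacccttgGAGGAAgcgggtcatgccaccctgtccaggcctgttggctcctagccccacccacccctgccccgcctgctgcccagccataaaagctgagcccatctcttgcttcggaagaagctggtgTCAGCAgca

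The Mrc1 window held GAGGAA 3 times and no TGCTGA, and the Cd163 window held neither. Stab1 and Cbr2 each held 1 of both. Of the 8 windows of the 6 genes, 5 held GAGGAA and 4 held TGCTGA, against 28.3% and 19.5% of all 32851 RefSeq promoter windows of the same length. Counted by gene, 4 of the 6 had GAGGAA and 3 had TGCTGA in at least 1 window. These matches describe the letters of the window and nothing about binding.

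Among the receptors, Mrc1 was the gene that MLCs carried at a higher level than endogenous microglia, in every mouse. Mrc1 encodes the mannose receptor CD206, which takes up glycoproteins and microbes. Over the summed UMIs of a library it stood at 449.7 CPM in GFP+ i.v. female, 514 in i.v. male, 493 in i.c.v. female and 664 in i.c.v. male cells. In the GFP- libraries it stood at 140.2, 252, 348 and 288 CPM in the same order of mice. All 4 GFP+ libraries lay above all 4 GFP- libraries, and the GFP- i.v. female was the lowest. The mean was 530.3 ± 93.1 CPM in GFP+ and 257 ± 87.2 CPM in GFP- libraries (SD, n = 4 each), and within a mouse the GFP+ level was 3.21, 2.04, 1.42 and 2.31 times the GFP- level. In the model of all genes the difference was 1.31 on the log2 scale (SE 0.27) with an adjusted p of 0.00782 by edgeR's quasi-likelihood test. Naive microglia lay at 255 CPM, among the GFP- libraries. PBMCs followed at 49.4 and astrocytes at 1.25 CPM, and the neuron sort had 0 of 3716575 UMIs, which allows up to 0.807 CPM. In sums over a library, fewer cells with a transcript and less of it per cell cannot be told apart.

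Stab1, which encodes the scavenger and clearance receptor stabilin-1, had levels that overlapped between the sorts. It stood at 367, 377, 534 and 491 CPM in the GFP+ i.v. female, i.v. male, i.c.v. female and i.c.v. male libraries. In the GFP- libraries it stood at 381, 446, 438 and 382 CPM. The ranges overlapped, with means of 442 ± 83.1 and 412 ± 35.1 CPM (SD, n = 4 each), and the GFP+ level was 0.846 to 1.28 times that of GFP- cells of the same mouse. The fitted difference was 0.38 (log2, SE 0.13) and did not pass the test, with an adjusted p of 0.0547 by edgeR. The naive microglia library was below both sorts at 307 CPM, while PBMCs held 5.32 and astrocytes 0.416 CPM, the latter from 2 UMIs. Stab1 passed the test in 5 of 20 other settings, among them the fits without the GFP+ i.v. female library (adjusted p = 0.0425) and without the GFP- i.c.v. female library (adjusted p = 0.0422).

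Cd163, the receptor that clears haemoglobin bound to haptoglobin and a marker of perivascular macrophages, was lower in MLCs. It stood at 12.4, 11.6, 8.60 and 16.4 CPM in the GFP+ libraries, again in the order i.v. female, i.v. male, i.c.v. female and i.c.v. male. In the GFP- libraries it stood at 24.1, 23.0, 39.2 and 19.5 CPM. Every GFP+ library lay below every GFP- library, and the GFP- i.c.v. female was the highest. Means were 12.2 ± 3.22 and 26.5 ± 8.73 CPM (SD, n = 4 each), with GFP+ to GFP- ratios of 0.219 to 0.840 within mice. The fitted difference was -0.84 (log2, SE 0.27) with an adjusted p of 0.0412 by edgeR. With mouse as a block the adjusted p was 0.113 and the gene was no longer called. Leaving out 1 library also ended the call for 6 of 8 libraries, with adjusted p of 0.0635 to 0.0848, the highest without the GFP- i.c.v. female, where the difference was -0.53. The 2 libraries that could be left out with the call kept were the GFP+ i.c.v. male (adjusted p = 0.0340) and the GFP- i.c.v. male (adjusted p = 0.0462). Naive microglia, at 23.3 CPM from 23 UMIs, lay among the GFP- libraries, and PBMCs had 7.60 CPM from 20 UMIs, next to the lowest GFP+ library.

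Lyve1 and Folr2, the hyaluronan receptor and the folate receptor beta that mark perivascular and leptomeningeal macrophages, were rare in both sorts. Lyve1 stood at 4.00, 4.56, 0.340 and 11.0 CPM in the GFP+ libraries, the i.c.v. female value being 3 UMIs. In the GFP- libraries it stood at 9.05, 9.96, 7.16 and 10.0 CPM. Of the GFP+ libraries 3 lay below all GFP- libraries and the i.c.v. male lay above them. The fitted difference was -0.56 (log2, SE 0.61, adjusted p = 0.511 by edgeR). Folr2 stood at 15.7, 10.3, 11.7 and 23.3 CPM in GFP+ and at 16.9, 21.5, 24.1 and 14.5 CPM in GFP- libraries. Its ranges overlapped, and the fitted difference was -0.06 (log2, SE 0.26, adjusted p = 0.889). The naive microglia library had the highest level of both genes, at 34.4 CPM of Lyve1 from 34 UMIs and 38.5 CPM of Folr2 from 38 UMIs. Astrocytes and the neuron sort had 0 UMIs of either, which allows up to 0.624 and 0.807 CPM.

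The enzymes F13a1 and Cbr2 had levels that overlapped between the sorts and did not pass the test. F13a1 encodes the A subunit of coagulation factor XIII, which cross-links fibrin and is also made by blood monocytes. It stood at 69.8, 78.9, 30.3 and 99.4 CPM in GFP+ and at 46.7, 60.4, 75.6 and 62.5 CPM in GFP- libraries. Those ranges overlapped, with the GFP+ i.c.v. female lowest of all 8 and the GFP+ i.c.v. male highest. The fitted difference was 0.47 (log2, SE 0.33, adjusted p = 0.297 by edgeR), and it was 0.72 with an adjusted p of 0.0213 without the GFP+ i.c.v. female library. F13a1 was the only member whose highest level was in PBMCs, at 229.6 CPM, with 91.1 CPM in naive microglia. Cbr2, a carbonyl reductase, stood at 17.9, 19.7, 14.9 and 34.7 CPM in GFP+ and at 17.3, 26.5, 30.7 and 20.1 CPM in GFP- libraries. Its ranges overlapped as well, with a fitted difference of 0.15 (log2, SE 0.28, adjusted p = 0.703). Naive microglia had 35.4, PBMCs 1.90 and astrocytes 0.208 CPM of Cbr2.

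**Figure D1:**
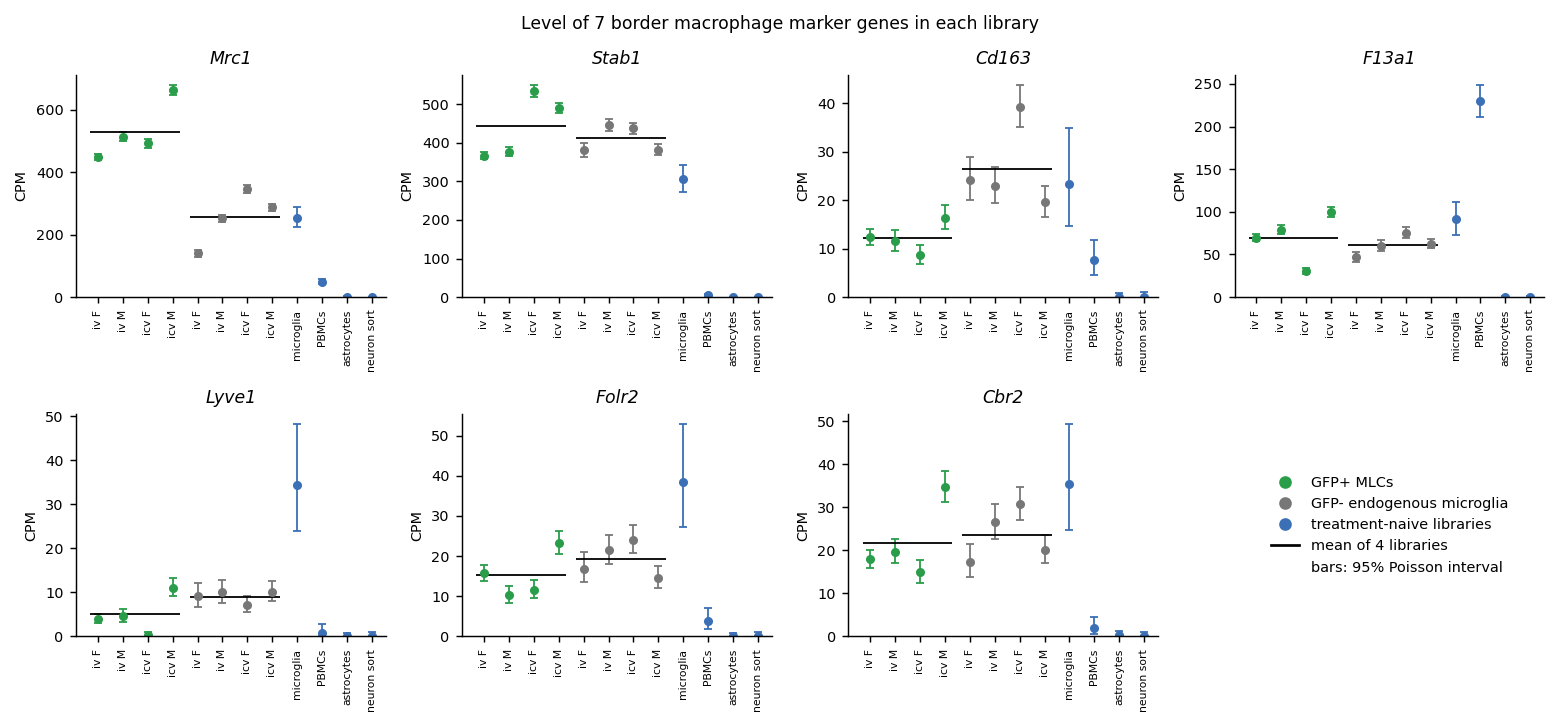
Level of each of the 7 genes, in CPM of summed UMIs, in the 12 libraries, with 95% Poisson intervals for counting error as bars and the mean of 4 libraries as a line. Mrc1 is higher in the 4 GFP+ than in the 4 GFP- libraries, Cd163 is lower, the other 5 overlap, and F13a1 peaks in PBMCs at 229.6 CPM.

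Of the 7 genes, 1 rose and 1 fell in GFP+ cells, in a comparison where 32.5% of 11756 genes were called, 16.6% higher and 15.9% lower in GFP+. The median log2 difference of the 7 was 0.15, against 0.01 over all genes tested. The CPM of 2 of the 7 did not overlap between the sorts, which held for 38.9% of all tested genes, 6.29% of them above and 32.6% below in GFP+. Both counts lie close to these backgrounds. The fit used TMM factors of 0.859 to 0.967 for GFP+ and 1.04 to 1.16 for GFP- libraries, which moved all GFP+ to GFP- differences up from those of plain CPM. With library size alone, a setting added after the data were seen, the median over all genes was -0.27, and 770 genes were called higher and 3803 lower, against 1951 and 1869 in the TMM fit. Mrc1 then differed by 1.04 (adjusted p = 0.0100), Cd163 by -1.11 (adjusted p = 0.00759) and Stab1 by 0.10 (adjusted p = 0.603), and Cbr2 changed sign to -0.12 (adjusted p = 0.733).

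None of the 7 genes was called between the routes of dosing, in MLCs or in endogenous microglia, with 2 libraries a side. This lies near the shares of all genes called, which are given below. In GFP+ cells Mrc1 stood at 449.7 and 514 CPM after i.v. and at 493 and 664 CPM after i.c.v. dosing, a fitted log2 difference of -0.14. In GFP- cells it was lower after i.v. dosing, at 140.2 and 252 against 348 and 288 CPM, with a difference of -0.82 (SE 0.28), an unadjusted p of 0.0186 and an adjusted p of 0.567 by edgeR. Stab1 in GFP+ cells was lower after i.v. dosing, at 367 and 377 against 534 and 491 CPM, with a difference of -0.34, an unadjusted p of 0.0481 and an adjusted p of 0.309 by edgeR. The i.v. and i.c.v. values of neither gene overlapped in those sorts, with 2 libraries a side. The share of all genes with such a gap was not counted, so nothing is read from it. Between routes 278 genes (2.36%) were called in GFP+ cells, 2.19% higher and 0.179% lower after i.v. dosing. In GFP- cells edgeR called 0 genes, with 974 at an unadjusted p under 0.05, and DESeq2 called 66. The interaction of sort and route was called for 189 genes (1.61%, with 1.51% higher and 0.0936% lower) and for none of the 7. With mouse as a block it was called for 550 genes and again for none of the 7. For Mrc1 the interaction without the block was 0.67 (adjusted p = 0.432 by edgeR). For Lyve1 and F13a1 the route difference in GFP+ cells depended on which i.c.v. library was kept. Without the GFP+ i.c.v. male library it was 3.74 for Lyve1 and 1.44 for F13a1, from -0.36 and 0.30 with it. Each then rested on the GFP+ i.c.v. female library alone, which is assumed to vary like the others. That library held 3 UMIs of Lyve1 and, at 30.3 CPM, the lowest F13a1 level among the treated libraries.

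Shares of cells with a UMI, at 500 UMIs per cell, separated the sorts for Mrc1 and, at that depth, for Stab1. Mrc1 was found in 21.6%, 22.7%, 20.9% and 28.6% of cells of the GFP+ i.v. female, i.v. male, i.c.v. female and i.c.v. male libraries. In the GFP- libraries it was found in 3.44%, 6.39%, 13.2% and 9.15% of cells. Each GFP+ share was above every GFP- share, with means of 23.5% ± 3.52 and 8.05% ± 4.15 (SD, n = 4 each). As a background, naive astrocytes, a cell type that should lack the gene, had it in 0.175%, 2 of 1146 cells with 3395 UMIs at the median before thinning, in a library that also held 791 CPM of 8 microglia markers. Naive microglia had Mrc1 in 16 of 482 cells, or 3.32%. At 1000 UMIs per cell the means were 38.7% ± 4.61 and 13.7% ± 6.27, again without overlap. Cells below 1000 UMIs were left out there, which cut the libraries unequally. It kept 2561 of 3344 cells in GFP+ i.v. female but 1810 of 4555 in GFP- i.v. male. Unthinned, the shares were 54.7% ± 3.82 and 15.5% ± 7.42, a difference that also holds the greater depth of the GFP+ libraries.

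Stab1 was found in 23.9%, 29.6%, 34.4% and 31.4% of GFP+ cells and in 20.6%, 20.4%, 22.0% and 21.0% of GFP- cells in the same order of mice. The shares did not overlap at 500 UMIs, with means of 29.8% ± 4.40 and 21.0% ± 0.743 (SD, n = 4 each). At 1000 UMIs, in the deeper cells alone, they did overlap, at 38.1% ± 5.50 and 36.1% ± 2.68 (SD, n = 4 each). For 2 of the 7 genes the shares at 500 UMIs were separated, both higher in GFP+, against 17.2% of all tested genes, 5.1% of them higher in GFP+. None of 1146 astrocytes had a UMI of Stab1 or of the other 5 genes at 500 UMIs, which allows a share of up to 0.262%.

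The other 5 genes were each found in few cells and are called the rarer markers below. F13a1 was in 3.50% ± 1.18 of GFP+ and 2.16% ± 0.922 of GFP- cells (SD, n = 4 each here and in the next 2 sentences), and in 24 of 334 PBMCs, or 7.19%. Cd163 was in 0.541% ± 0.126 and 0.955% ± 0.502 and Lyve1 in 0.146% ± 0.150 and 0.373% ± 0.0998. Cbr2 was in 1.26% ± 0.470 and 0.809% ± 0.264 and Folr2 in 0.724% ± 0.222 and 0.564% ± 0.181. The ranges of all 5 overlapped between the sorts. For Cbr2 and Folr2 the means of the shares and of the CPM were ordered in opposite ways, so no order between the sorts is read from them. The Lyve1 shares of 3 GFP+ libraries, 0.0382% to 0.0897%, were under the limit set by the astrocytes. The difference in Cd163 shares was negative at 500 UMIs and reached 0.318 percentage points in the other direction at the cells' own depth, where GFP+ cells are deeper.

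**Figure D2:**
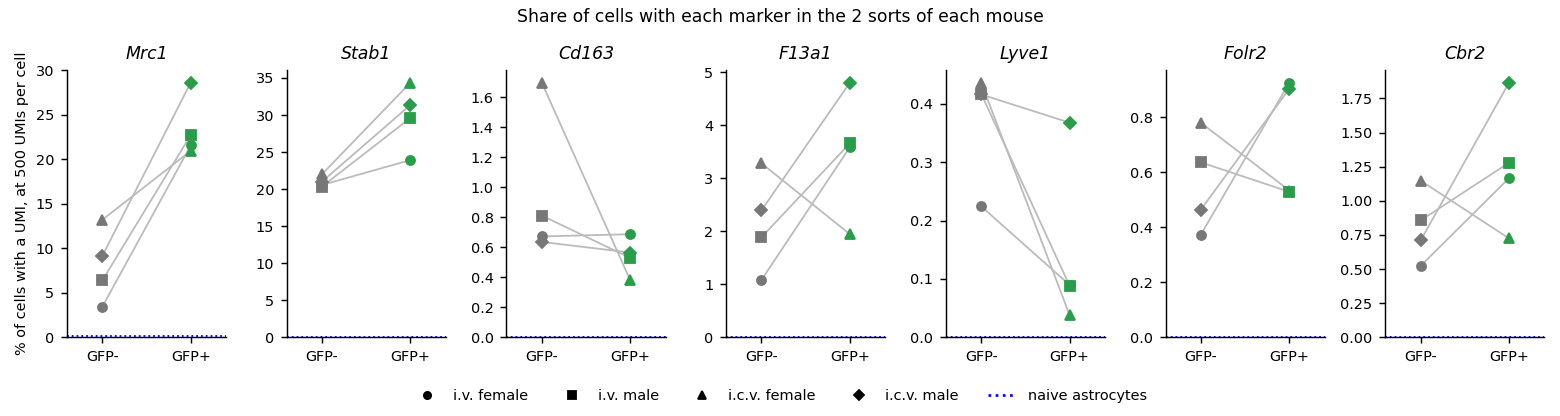
Share of cells with a UMI of each gene at 500 UMIs per cell, with a line joining the GFP- and GFP+ libraries of each of the 4 mice and a dotted line for naive astrocytes. The Mrc1 lines rise in all 4 mice from 3.44% to 13.2% in GFP- to 20.9% to 28.6% in GFP+ cells, while the other 5 genes apart from Stab1 have ranges that overlap.

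MLCs carried at least 2 of these genes more often than endogenous microglia, while the shares with 3 or more overlapped. Cells with both Mrc1 and Stab1, 1065 in GFP+ and 366 in GFP- libraries at 500 UMIs, were among those with at least 2. The difference thus follows in part from the shares of these 2 genes already given. At 500 UMIs, 46.2% ± 5.27 of GFP+ and 28.8% ± 4.64 of GFP- cells had at least 1 of the 7 genes, and 11.4% ± 1.65 and 3.89% ± 1.87 had at least 2 (SD, n = 4 each), without overlap between the sorts in either. At 1000 UMIs the shares with at least 1 overlapped, at 53.0% to 67.4% in GFP+ and 38.1% to 53.4% in GFP- libraries, while those with at least 2 did not, at 22.2% ± 3.93 and 9.14% ± 4.16. For at least 3 genes the shares overlapped, at 1.58% ± 0.429 and 0.842% ± 0.178, and for at least 4 they were 0.275% ± 0.162 and 0.245% ± 0.0695. Counting only the 5 rarer markers, 0.787% ± 0.250 of GFP+ and 0.566% ± 0.105 of GFP- cells had at least 2 of them, with overlap. These were 95 GFP+ and 88 GFP- cells in all.

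Pairs of genes were then compared with the number of cells expected if the genes of a pair were found independently within each library, summed over libraries. Mrc1 and Stab1 were in the same cell 1065 times in GFP+ libraries, 1.28 times the expected 831 (95% Poisson interval 1.21 to 1.36), and 366 times in GFP- libraries, 1.29 times the expected number (1.16 to 1.43). The 10 pairs among the rarer markers were 4.61 to 37.2 times the expected number in GFP+ (median 8.28, from 1 to 33 cells a pair) and 6.28 to 21.6 times in GFP- cells (median 8.93, from 4 to 35 cells). The interval was above 1 for 9 of these 10 pairs in GFP+ and for 10 of 10 in GFP- cells. Lyve1 and Folr2 had the highest ratio in both sorts, 37.2 from 6 cells and 21.6 from 8 cells. Intervals here cover counting error only, and the cells of a library are not independent replicates.

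The ratios of Mrc1 with each of the rarer markers were lower in GFP+ than in GFP- cells. With F13a1 it was found in 193 GFP+ cells, 1.85 times the expected number (1.60 to 2.14), and in 132 GFP- cells, 3.84 times (3.22 to 4.56). With Cd163 the ratios were 1.74 in GFP+ (27 cells) and 4.36 in GFP- cells (66 cells). With Lyve1, Folr2 and Cbr2 they were 1.99, 1.86 and 1.69 in GFP+ against 4.19, 3.56 and 3.84 in GFP- cells. The ratio that a pair can reach falls as a gene's share of cells rises, and Mrc1's share was higher in GFP+ cells, so these ratios are given as a description without a test of the difference. Without the GFP- i.c.v. female library the GFP- ratios of Mrc1 rose to 7.27 with Cd163, 5.30 with F13a1, 6.72 with Lyve1 and 5.15 with Cbr2. Stab1 was 1.16 to 2.09 times the expected number with the rarer markers in GFP+ and 1.29 to 1.67 times in GFP- cells.

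**Figure D3:**
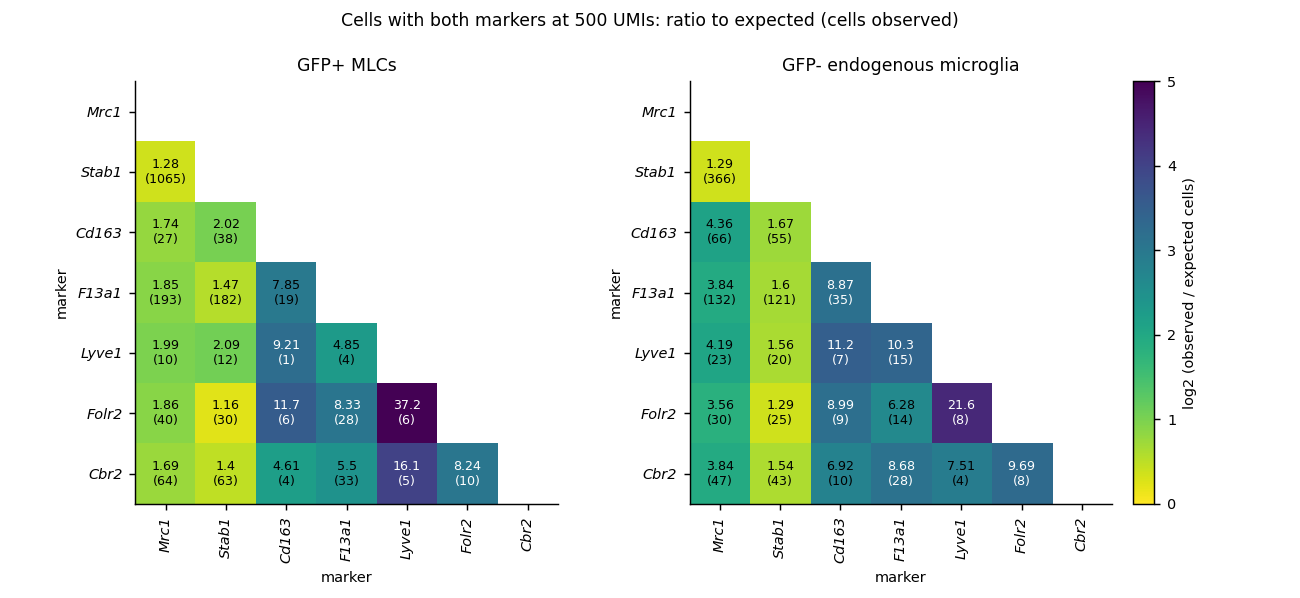
Ratio of observed to expected cells for each of the 21 pairs at 500 UMIs per cell, coloured on a log2 scale, with the number of cells observed in brackets, for GFP+ cells on the left and GFP- cells on the right. The first column, Mrc1 with the rarer markers, has ratios of 1.69 to 1.99 in GFP+ and 3.56 to 4.36 in GFP- cells, while pairs among the rarer markers exceed 4 in both.

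How much of each gene came from cells rich in the rarer markers was measured at the cells' own depth, from cells with at least 2 of the rarer markers other than the gene itself. This group was chosen after the pair values had been seen, and depth enters it, since deeper cells show more markers. Such cells were 3.34% ± 1.07 of GFP+ and 1.92% ± 0.527 of GFP- cells for Mrc1 (SD, n = 4 each). They held 15.2%, 17.7%, 8.93% and 19.2% of all Mrc1 UMIs in the GFP+ i.v. female, i.v. male, i.c.v. female and i.c.v. male libraries. In the GFP- libraries they held 43.2%, 42.1%, 26.2% and 34.4%. In the shallow naive microglia library, with 425 UMIs per cell at the median, they held 73.0%, or 184 of 252 UMIs in 12 cells. No GFP+ share reached a GFP- share, with means of 15.3% ± 4.53 and 36.5% ± 7.89.

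In the remaining cells, those without that combination, Mrc1 stood at 401, 446, 463 and 579 CPM in GFP+ and at 82.8, 153, 274 and 198 CPM in GFP- libraries. Every GFP+ value was above every GFP- value here too, with means of 472 ± 75.8 and 177 ± 80.3 CPM (SD, n = 4 each), and the naive microglia library stood at 74.3 CPM. Stab1 had 9.54% ± 2.81 of its UMIs in marker-rich GFP+ and 9.56% ± 2.13 in marker-rich GFP- cells, the lowest means of the 7 genes. Lyve1 had 86.6% ± 14.5 and 74.6% ± 15.4, the highest. Cd163 had 40.7% ± 14.3 and 51.9% ± 7.34. In the remaining cells it stood at 7.32 ± 1.27 CPM in GFP+ and 13.5 ± 6.10 CPM in GFP- libraries. The highest GFP+ value, 9.01 CPM, was just under the lowest GFP- value, 9.59 CPM. The share of all genes separated in these quantities was not counted, so nothing is read from such gaps for Mrc1 or Cd163. F13a1, Folr2 and Cbr2 had means of 33.4%, 57.3% and 50.3% in GFP+ and 47.8%, 71.3% and 64.2% in GFP- cells, with ranges that overlapped.

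**Figure D4:**
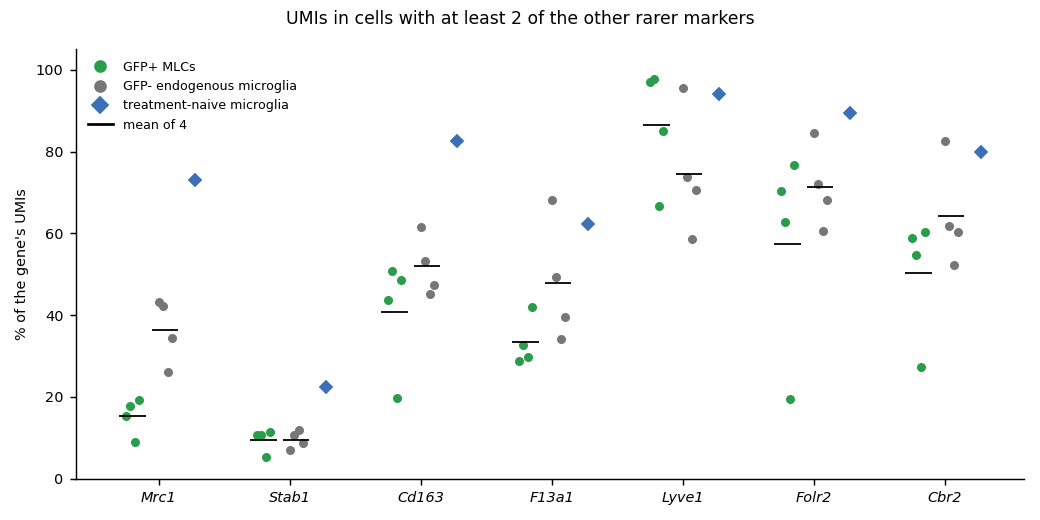
Percent of each gene's UMIs found in cells with at least 2 of the other rarer markers, at the cells' own depth, with 1 point per library and a line at the mean of 4. For Mrc1 the GFP+ points (8.93% to 19.2%) lie below the GFP- points (26.2% to 43.2%) and the naive microglia point (73.0%, from 12 cells). For Stab1 the sorts lie together.

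The cells with rarer markers were then described by other genes, at 500 UMIs. The genes named in the next sentences were picked after their values had been seen, and the cells were grouped by the rarer markers, so no test is given. Mrc1 was found in 22.4% of GFP+ cells with no rarer marker, 40.6% of those with 1 and 51.4% ± 13.9 of those with at least 2 (means of 4 libraries). In GFP- cells the shares were 6.99%, 29.3% and 64.5% ± 10.6. For Stab1 they were 29.1%, 43.5% and 46.8% in GFP+ and 20.6%, 27.7% and 51.0% in GFP- cells. Mrc1 in cells without any rarer marker ran from 20.4% to 27.3% in GFP+ and from 2.56% to 11.9% in GFP- libraries, and in cells with at least 2 the ranges of the sorts overlapped, at 36.4% to 69.7% and 50% to 75%.

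Pf4 and Cd209f were more frequent in cells with rarer markers in both sorts, and Ms4a7 in GFP- cells. Pf4, a chemokine gene used to mark these macrophages, was in 8.67% of GFP+ cells with no rarer marker and in 53.9% ± 11.0 of those with at least 2, and in 3.60% and 42.0% ± 9.52 of such GFP- cells. Cd209f, a C-type lectin gene, went from 0.449% to 19.2% ± 5.50 in GFP+ and from 0.800% to 24.3% ± 14.7 in GFP- cells. Ms4a7 was already in 28.7% of GFP+ cells with no rarer marker and in 31.0% ± 10.5 of those with at least 2, while in GFP- cells it went from 6.35% to 27.6% ± 10.8. Tmem119, a marker of microglia, was in 12.6% of GFP+ cells with no rarer marker and in 2 of the 95 with at least 2, and in 39.0% and 12 of 88 of such GFP- cells. A list of 18 other border macrophage genes held 34.8 ± 3.53 UMIs per 10000 in GFP+ cells with no rarer marker and 125 ± 7.81 in those with at least 2, and 18.8 ± 4.75 and 106 ± 8.41 in GFP- cells. Over 8 microglia markers the values were 44.7 ± 9.14 and 11.9 ± 3.67 in GFP+ and 114 ± 17.2 and 43.9 ± 11.6 in GFP- cells.

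**Figure D5:**
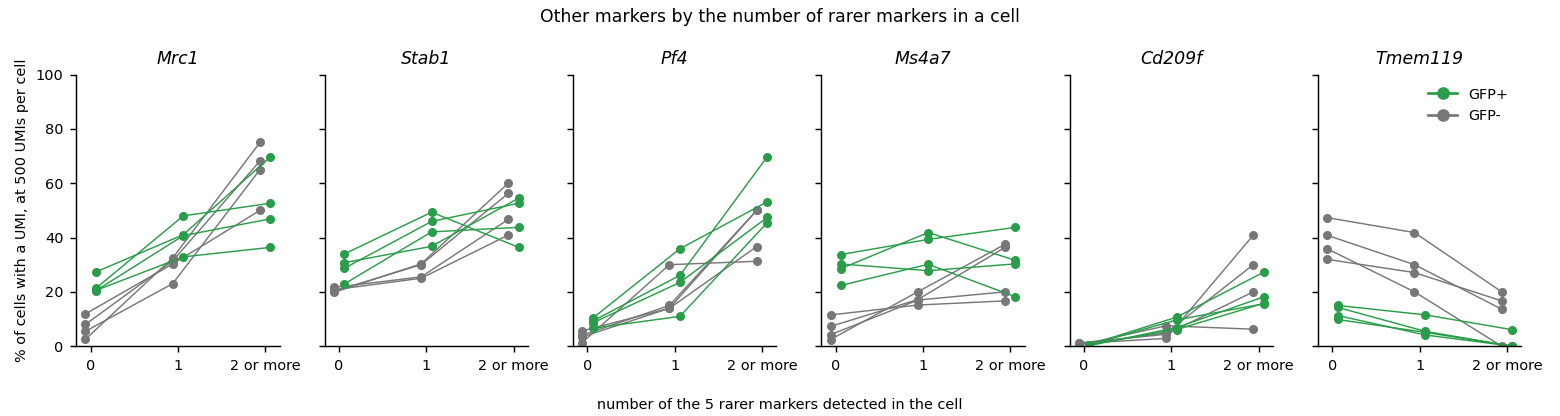
Share of cells with a UMI of 6 genes, at 500 UMIs per cell, by the number of the 5 rarer markers found in the cell, with 1 line per library. Mrc1, Pf4 and Cd209f are more frequent in cells with 2 or more rarer markers than in those with 0 in all 8 libraries, Ms4a7 does so in GFP- libraries, and Tmem119 is less frequent in all 8.

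Y-linked transcripts and Xist were read in the female mice, because the donors of the transduced cells were male. Of cells with at least 2 rarer markers, 4 of 32 and 1 of 11 had a Y-linked UMI in the GFP+ i.v. and i.c.v. female libraries, or 12.5% and 9.09%, and 2 of 32 and 0 of 11 had Xist, the latter allowing up to 27.3%. In the GFP- i.v. and i.c.v. female libraries 0 of 16 and 0 of 30 had a Y-linked UMI, which allows shares of up to 18.8% and 10%, and 6 of 16 and 14 of 30 had Xist, or 37.5% and 46.7%. Of cells with Mrc1, 16.4% and 19.5% had a Y-linked UMI and 0.139% and 0.364% had Xist in the GFP+ female libraries. In the GFP- female libraries 3 of 92 and 5 of 575 cells with Mrc1 had a Y-linked UMI, or 3.26% and 0.870%, and 63.0% and 50.3% had Xist. Across all cells of the GFP- female libraries the Y-linked shares were 0.523% and 0.689% and the Xist shares 77.5% and 56.4%, and across all cells of the GFP+ female libraries they were 12.8% and 20.5% for Y-linked UMIs and 2.15% and 0.801% for Xist. Xist was also found in the GFP- libraries of male mice, in 17 of 4555 cells (i.v.) and 84 of 4087 cells (i.c.v.). The GFP+ male libraries had it in 0 of 2266 and 0 of 3536 cells, which allows up to 0.132% and 0.0848%. Xist or a missing Y-linked UMI therefore does not show that a GFP- cell came from the recipient. A cell at this depth shows these transcripts in only part of cases, and their part in the difference between the sorts was not tested.

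Over all tested genes 16.6% were called higher and 15.9% lower in GFP+ cells. Of the 18 other border macrophage genes, all tested, 7 rose in GFP+ cells, 0 fell and 11 did not pass the test. Their median log2 difference was 0.91 against 0.01 over all genes. The largest were Ms4a7 at 1.97 (SE 0.34, adjusted p = 0.00392), Wfdc17 at 1.47 (SE 0.36, adjusted p = 0.0151) and Tgfbi at 1.27 (SE 0.24, adjusted p = 0.00527) by edgeR. The other 4 were Dab2, Clec4n, Pf4 and Nrp1. Among those not called, Cd209f differed by -0.07 and Maf by 0.05. Of 6 genes of the MHC class II type of border macrophage, which presents antigen, 1 rose, near the share over all genes. It was Clec12a at 1.91 (SE 0.41, adjusted p = 0.00914 by edgeR). The 8 microglia markers fell in 6 cases and rose in 0. The summed level of the 18 genes was 2939 to 3943 CPM in GFP+ and 1659 to 2859 CPM in GFP- libraries. That of the microglia markers was 3364 to 6714 and 8091 to 12579 CPM. Naive PBMCs held 3068 CPM of the 18 genes, inside the GFP+ range. The sum thus does not set border macrophages apart from blood cells. Of the called genes, Pf4, Wfdc17 and Tgfbi were highest in PBMCs, at 940, 1183 and 295 CPM. PBMCs held Ms4a7, Dab2, Clec4n and Nrp1 below every GFP+ library, at 4.18, 26.2, 5.32 and 34.6 CPM.

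Summed levels of markers of other cells that the gate could hold are given next, and their part in the values of the 7 genes was not tested. The ranges of several lists overlapped between the sorts. Between GFP+ and GFP- libraries the summed CPM of 7 monocyte markers was 2.49 to 430.04 and 29.6 to 155, of 6 neutrophil markers 0 to 2829 and 53.8 to 5048, and of 6 dendritic cell markers 6.90 to 378 and 39.4 to 76.2. It was 14.5 to 33.5 and 30.6 to 68.3 for 6 endothelial, 0.825 to 2.00 and 12.7 to 21.3 for 4 lymphatic endothelial, and 6.69 to 84.1 and 3.22 to 41.9 for 6 fibroblast and mural markers. For 6 astrocyte markers it was 31.4 to 71.3 and 124 to 167, for 6 oligodendrocyte markers 63.8 to 136 and 88.5 to 335, for 5 neuron markers 1.83 to 4.19 and 2.21 to 4.29, and for 4 platelet markers 1.32 to 5.55 and 14.9 to 31.4. B cell (5), T and NK cell (5) and erythroid (4) markers summed to 162 to 189.5 and 189 to 228, 0.0917 to 8.21 and 0.460 to 6.43, and 0 to 0.101 and 0 to 0.613 CPM. In GFP+ libraries monocyte markers summed to 430 and 356 CPM after i.v. and to 2.49 and 3.48 CPM after i.c.v. dosing. Neutrophil markers there summed to 1485 and 2829 against 0 and 0.275 CPM. Of the 6 astrocyte markers 1 was called between the sorts, Slc1a3 at -2.78, and 5 were not. Of the lymphatic endothelial and platelet lists 1 gene each could be tested. In cells with at least 2 rarer markers the endothelial and lymphatic endothelial lists had no UMI in the 95 GFP+ and 88 GFP- cells, at 500 UMIs each. The monocyte list held 0.455 UMIs per 10000 in such GFP+ and 0 in such GFP- cells. Cells with at least 3 markers of another cell type were also left out, after which Mrc1 stayed called and Cd163 had a log2 difference of -0.86 (adjusted p = 0.0332 by edgeR).

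Genes with the most similar pattern over the 12 libraries were found by Pearson's r of log2(CPM + 1) among 11668 genes with at least 10 CPM in any library. They were Ctsc and Hlx for Mrc1 (r of 0.993 for both), Ang and Ctsd for Stab1 (0.996 for both), Hk3 and Txnip for Cd163 (0.978 and 0.977) and Pf4 and Rac2 for F13a1 (0.989 and 0.988). For Lyve1 they were Tesk1 and Cd209b (0.929 and 0.924), for Folr2 they were Cbr2 and Serinc3 (0.979 and 0.976) and for Cbr2 they were Pla2g15 and Folr2 (0.980 and 0.979). Folr2 and Cbr2 were thus among the closest to each other. All r describe 12 libraries in which the astrocytes and the neuron sort hold these genes at or near 0, and any gene of myeloid cells shares that contrast.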

How the data were processed

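The authors made the deposited tables of UMI counts per gene and barcode with Cell Ranger on mm10, as the submitters' processing notes name them, and the matrix headers give software version 3.1.0. The counts are whole numbers without normalization. The tables of the naive mouse do not list EGFP. Kept barcodes had 200 or more genes and no more than 10% of UMIs from mt- genes, counts were summed per library, and CPM used all kept UMIs. No doublet caller was run, and as an alternative the 5% of cells with the most UMIs were left out of each library.

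Summed counts were fitted in edgeR 4.0.16 under R 4.3.3, with TMM factors and the filterByExpr filter by sort, by a quasi-likelihood F test with Benjamini-Hochberg adjustment over 11756 genes, called at an adjusted p under 0.05. All 8 treated libraries entered each fit, and adjusted p values refer to this fit unless DESeq2 1.42.0 is named. GFP+ was compared with GFP- libraries (4 against 4), i.v. with i.c.v. within each sort (2 against 2), and the interaction was tested. In simulated data a 4-fold change in 200 genes was recovered for 96.5% of them between the sorts (11617 genes) and for 13% in the interaction (11633 genes). Between routes it was recovered for 71% within GFP+ (11641 genes) and for 68% within GFP- libraries (11619 genes). The simulation gave all genes the same spread between libraries and no mouse effect. These rates therefore need not hold for rare or variable genes, or for smaller changes. Naive libraries are single samples and were not tested. Libraries with the same number come from the same mouse, so mouse was used as a block in an alternative fit. Deviations of same-mouse libraries from their group means correlated at 0.205, -0.275, -0.331 and 0.013 over 11756 genes.

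Cells were thinned to 500 UMIs without replacement (seed 1), leaving out cells below that, 792 of 1274 in naive microglia, 7 of 341 PBMCs, 93 of 575 in the neuron sort and 0 in the treated libraries. Thinning to 1000 UMIs left out all cells below that, and kept 1374 to 2561 cells in GFP+ and 1412 to 1953 in GFP- libraries. Expected cells of a pair were the product of the shares of both genes in each library. Intervals of CPM and of pair ratios are exact Poisson, those of shares exact binomial, at 95%, and they cover counting error only. Limits given beside a value of 0 are those that 3 counts set. Gene positions came from GENCODE models and promoter windows from RefSeq. Python 3.11.15, numpy 2.4.6, scipy 1.17.1, pandas 2.3.3 and matplotlib 3.10.9 were used.

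The 7 members, the marker lists, the tests and the groups of cells by rarer markers were chosen with earlier results of these data known. Named genes are the 7 members, the called genes of the border macrophage lists with the 3 largest changes in each direction, and the 2 genes most like each member. Other names were chosen after their values were seen. Alternatives were other barcode filters, thinned cells, cells of another type left out, DESeq2, other normalizations, no filter on low counts, each library left out, the mouse block, and each route alone.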

Additional observations from a re-analysis of the deposited data

Results flagged for a closer look

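In 46 groups of 4 libraries the highest or lowest value was compared with the gap to its neighbour, and 4 groups held a value far from the rest by Dixon's criterion, which chance gives in about 1 group in 20. The GFP+ i.c.v. female library had 5.341% of its Stab1 UMIs in cells with at least 2 rarer markers, against 10.7% to 11.3% in the other GFP+ libraries. The GFP+ i.c.v. male library had Lyve1 in 0.3676% of cells at 500 UMIs, 13 of 3536 cells, against 0.0382% to 0.0897% in the other GFP+ libraries. The GFP- i.c.v. female library had Cd163 in 1.699% of cells, 74 of 4355, against 0.636% to 0.812% in the other GFP- libraries. The GFP- i.v. female library had Lyve1 in 0.2243% of cells, 6 of 2675, against 0.416% to 0.436% in the other GFP- libraries. The causes of these were not tested.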

How the results depend on the processing

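Mrc1 was called higher in GFP+ cells in all 20 alternative fits, with log2 differences of 1.03 to 1.68 and adjusted p of 1.25e-05 to 0.0336. Cd163 was called lower in 9 of 20 (-1.11 to -0.53, adjusted p of 0.00759 to 0.236), with adjusted p of 0.0528 in i.v. mice alone, 0.170 in i.c.v. mice alone, 0.236 in thinned cells and 0.0887 without the 5% of cells with the most UMIs. Stab1 was called in 5 of 20, with 0.83 (adjusted p = 0.00308) in thinned cells and 0.0207 by DESeq2, and F13a1 in 2 of 20, with 0.85 (adjusted p = 0.0212) in i.v. mice alone. Lyve1, Folr2 and Cbr2 were called in 0 of 20, and Folr2 changed sign in 6 and Cbr2 in 2. With mouse as a replicate block 3217 genes were called between the sorts, Mrc1 differed by 1.39 (adjusted p = 0.0160) and Cd163 lost its call, and the interaction had 550 calls. The block ended or made no other call among the 7 genes.

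Called genes between the sorts, 3820, became 1266 in thinned cells and 1031 in i.c.v. mice alone, and ran from 2177 (without the GFP- i.v. male) to 3791 with 1 library left out. Calls between routes in GFP+ cells, 278, became 51 in thinned cells, 171 without cells of another type, 159 without the 5% of cells with the most UMIs, 449 by DESeq2 and 679 with no filter, and ran from 34 (without the GFP+ i.c.v. female) to 262. In GFP- cells the 0 calls became 6 in thinned cells, 1 without cells of another type, 66 by DESeq2 and 83 with no filter, and 0 to 23 (without the GFP- i.c.v. male). The 189 interaction calls became 117 with the stricter barcode filter, 51 in thinned cells, 113 without cells of another type, 294 without the 5% of cells with the most UMIs, 518 by DESeq2 and 698 with no filter, and ran from 38 (without the GFP- i.v. male) to 214. With 1 library left out, Lyve1 ran from -1.29 (without the GFP+ i.c.v. female) to 3.74 (without the GFP+ i.c.v. male) for route in GFP+ cells, and from -1.33 to 3.70 (adjusted p = 0.0393) in the interaction. The share with at least 2 members, 7.47 points higher in GFP+, became 13.0 at 1000 UMIs and 32.8 in unthinned cells, where the Cd163 share turned to 0.318. Of 504 refitted differences of single members 50 changed sign, 2 of them with a call. The low counts of Lyve1, Folr2 and Cd163 limit these fits, as do 4 mice and the depth gap between the sorts, and the causes of these changes were not tested.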

Other observations

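Antigen presentation genes were also seen in the marker-rich cells. H2-Aa, a chain of MHC class II, was in 22.9% ± 4.05 of GFP+ cells with at least 2 rarer markers (SD, n = 4 libraries) and in 26.2% ± 10.8 of those with 1. The list of 6 genes of MHC class II border macrophages held 81.4 ± 28.0 UMIs per 10000 in marker-rich GFP+ and 33.8 ± 16.1 in marker-rich GFP- cells, at 500 UMIs per cell. In GFP+ cells without any rarer marker it held 80.9 ± 76.5, and in such GFP- cells 19.3 ± 8.58. Over whole GFP+ libraries it summed to 27122 and 28327 CPM after i.v. and to 1038 and 3643 CPM after i.c.v. dosing. Of its 6 genes 5 were called higher after i.v. dosing by edgeR. Over all tested genes 2.19% were called higher, so the 0 calls among the 7 members lie near that share. The MHC class II genes were named after their values were seen, and no test links them to the members.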
